A study of Homo sapiens with 12 samples.

Results

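The clustered histone genes were followed through polyA RNA of C4.2B cells, a castration-resistant prostate cancer cell line. Most of them encode replication-dependent H1, H2A, H2B, H3 or H4 proteins, while HIST2H2BA and HIST2H2BC are pseudogenes. Members were all rows of the count tables whose older symbol begins with HIST1H, HIST2H, HIST3H or HIST4H, which gave 72 of the 23228 genes listed. They comprised 6 H1, 17 H2A, 20 H2B, 14 H3 and 15 H4 genes, with 55 in the HIST1 cluster on chromosome 6, 13 in HIST2 and 3 in HIST3 on chromosome 1, and 1 in HIST4 on chromosome 12. Each of 4 arms had 3 libraries (replicates A, B and C). The DMSO arm received vehicle throughout. The GDC arm received vehicle for 6 days and then 0.5 µM GDC-0941, an inhibitor of PI3K, for 24 hours. The GSK arm received 5 µM GSK126, an inhibitor of the histone methyltransferase EZH2, for 6 days and for the final 24 hours. The COMBO arm received GSK126 for 6 days and then both agents for 24 hours. All arms spent the last 24 hours in medium with 10% charcoal-stripped serum, so the controls were also deprived of serum steroids. All libraries come from 1 cell line, and the replicates of an arm were parallel plates seeded after the pretreatment, so p-values measure the spread between plates.

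Clustered histone genes are the main source of new histones during DNA replication. Their mRNAs are unusual in ending at a conserved stem-loop that binds the protein SLBP, rather than in a polyA tail, and they are made in S phase and degraded when replication stops. Several of these genes also produce polyadenylated transcripts that run past the stem-loop, above all in cells that have left the cell cycle. A polyA library therefore samples the stem-loop mRNAs poorly, and the counts below are not the total histone mRNA of the cells.

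The stem-loops were read from the reference genome because they divide the members by the end of their mRNA. A strict stem-loop (6 paired bases around a loop of 4) was found within 150 bases of the stop codon in 65 members, and 5 are shown for members that rose or fell below. Each is given 5′ to 3′ on the gene's strand, with the stem and loop in capitals and the flanking bases in lower case.
HIST2H2BE, chr1:149886183-149886208 (hg38, minus strand): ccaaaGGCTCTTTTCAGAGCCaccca
HIST1H2BK, chr6:27146361-27146386 (hg38, minus strand): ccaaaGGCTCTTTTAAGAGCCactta
HIST1H4H, chr6:26285126-26285151 (hg38, minus strand): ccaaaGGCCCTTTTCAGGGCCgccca
HIST2H2AC, chr1:149887386-149887411 (hg38, plus strand): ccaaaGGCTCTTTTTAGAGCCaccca
HIST1H1B, chr6:27866792-27866817 (hg38, minus strand): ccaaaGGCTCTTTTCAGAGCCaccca
The stem-loop of HIST2H2BE, which rose most, and that of HIST1H1B, which fell most, were identical over these 26 bases. The form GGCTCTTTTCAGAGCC was found in 40 members of the H1, H2A, H2B and H3 types, and the 14 H4 stem-loops had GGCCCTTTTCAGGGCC (10 genes) or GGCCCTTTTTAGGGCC (4 genes). In GENCODE 44 or RefSeq, 17 members had a transcript that ran over 50 bases past the stem-loop, 48 ended there, and in 7 no strict stem-loop was found or searched for, the last including the pseudogenes HIST2H2BA and HIST2H2BC.

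Few of the 72 genes were well sampled. No count was found for 13 members in any library. Among them were HIST2H2AA3, HIST2H2AA4, HIST2H3A, HIST2H3C, HIST2H4A and HIST2H4B, which are near-identical copies whose reads may map to more than 1 place. A further 24 had between 2 and 83 counts over all 12 libraries and did not pass the filter on low counts. All 37 members that were not tested summed to 3.85 ± 0.352 counts per 1000000 gene counts (CPM) in DMSO and 3.43 ± 0.462 in GDC. In GSK they summed to 4.74 ± 0.259 and in COMBO to 5.49 ± 1.03 (SD, n = 3). The remaining 35 members were tested, with 95 to 18389 counts each, and they held 98.9% of all member counts. Only 24 of the 35 reached the filter's level in all 3 DMSO libraries, against 29 in COMBO, so some were tested because of the arm in which they were high. No DMSO library of HIST1H4B, HIST1H4I, HIST2H2BA or HIST2H3D reached that level, so these 4 members passed only through libraries of other arms, and their place among the calls below is a description. HIST1H1B reached it in 3 DMSO, 3 GDC, 1 GSK and 0 COMBO libraries, and HIST1H3A in 3, 3, 1 and 1. Both were tested through the arms in which they were high, so their place among the lower calls is a description too. Depth ranged from 8785218 to 44437751 gene counts per library. A count of 0 allows up to 0.0675 to 0.341 CPM in these libraries, for counting error only.

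Levels were uneven among the tested members. HIST1H2BK, HIST2H2BE and HIST1H1C alone held 63.7% of the member counts. Per kilobase of annotated exon, the mean DMSO level was 175 CPM per kb for HIST1H2BK (an H2B gene), 67.3 for HIST1H1C (the linker histone H1.2), 10.7 for HIST2H2BE (H2B) and 9.58 for HIST1H2BD (H2B). In COMBO the same order held, at 206, 165, 66.9 and 35.5 CPM per kb. These levels rest on lengths from GENCODE 44, since the gene models used for counting are not given in the sources used here. The length used for HIST1H2BK is 495 bases and ends at the stem-loop, although its RefSeq gene runs past it. That of HIST2H2BE is 2224 bases and includes the part past the stem-loop, so the order depends on these lengths.

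**Figure D1:**
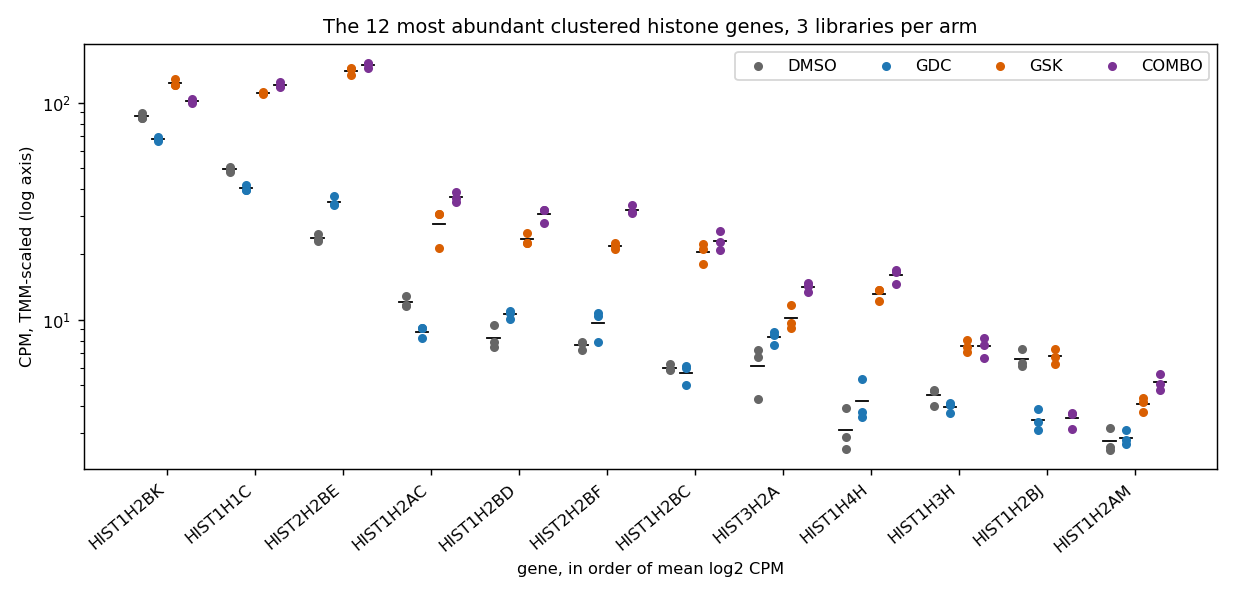
TMM-scaled CPM (log axis) of the 12 clustered histone genes with the highest mean log2 CPM, with 1 point per library and a bar at the mean of each arm (n = 3). HIST2H2BE lies between 23.0 and 24.8 CPM in DMSO and between 144 and 152 in COMBO, and HIST1H2BJ is lower in GDC and COMBO than in DMSO and GSK.

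Summed over all 72 genes, the clustered histone counts were higher with EZH2 inhibition and not with PI3K inhibition alone. The sum, scaled by library totals, was 227, 244 and 233 CPM in DMSO and 221, 220 and 226 in GDC. It was 588, 588 and 560 in GSK and 628, 627 and 659 in COMBO. The GSK and COMBO libraries lay above every DMSO and GDC library, whereas the GDC libraries all lay below the lowest DMSO library by a small margin. The log2 ratio of the arm means to DMSO was -0.08 for GDC, 1.30 for GSK and 1.44 for COMBO, given without a test. With TMM scaling the ratios for GSK and COMBO were 1.15 and 1.23, and without HIST1H2BK that for GDC was 0.03.

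Every histone type had a higher sum in GSK and COMBO. Single genes carried much of the difference for H1, H2A, H2B, H4 and the HIST2 and HIST3 clusters. H2B genes made up most of the counts, with 142 ± 3.59 CPM in DMSO and 138 ± 4.59 in GDC. Their sum was 365 ± 11.8 in GSK and 383 ± 12.6 in COMBO. H1 genes went from 48.5 ± 1.4 to 132 ± 4.55 between DMSO and COMBO, H2A from 27.9 ± 2.82 to 73.7 ± 4.86, H3 from 9.59 ± 0.598 to 22.5 ± 0.369 and H4 from 7.09 ± 1.53 to 26.4 ± 1.32 (SD, n = 3). The H1 sum was nearly all HIST1H1C, and the other H1 genes summed to 2.64 ± 0.259 CPM in DMSO and 1.95 ± 0.587 in COMBO. Without HIST1H2AC the H2A sum went from 16.7 ± 2.3 in DMSO to 34.3 ± 2.63 in COMBO (log2 ratio 1.04). Without HIST1H4H the H4 sum went from 4.19 ± 0.999 to 9.16 ± 1.59 (1.13). The log2 ratio was 1.41 for H3 without HIST1H3H. For H2B it was 1.44 with all genes and 2.16 without HIST1H2BK, which had the most counts but rose less than the sum. HIST2H2BE, also an H2B gene, held most of the HIST2 rise, and the H2B sum without it was not computed. By cluster, HIST1 went from 191 ± 7.77 to 417 ± 13.5 (log2 ratio 1.13) and HIST2 from 36.3 ± 1.25 to 201 ± 5.17 (log2 ratio 2.47). HIST2 thus held 15.3% of the member counts in DMSO, 21.7% with GDC, 30.2% with GSK and 31.6% with both agents. The member with the most counts was then left out of HIST1, HIST2 and HIST3, a choice made after the values were seen. The log2 ratio of COMBO to DMSO was 1.48 for HIST1 (without HIST1H2BK) and 1.54 for HIST2 (without HIST2H2BE). Without HIST2H2BE the HIST2 sum went from 14.1 ± 0.698 in DMSO to 41.1 ± 2.34 CPM in COMBO. The HIST3 sum went from 6.79 ± 1.68 to 17.5 ± 0.314, and without HIST3H2A from 1.10 ± 0.230 to 2.21 ± 0.664.

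**Figure D2:**
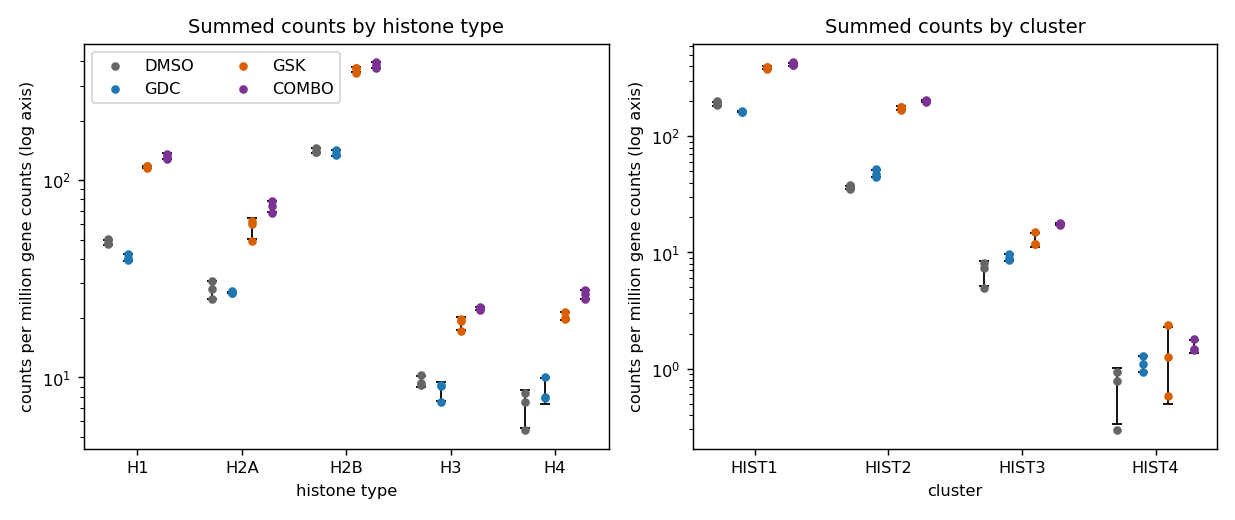
Summed CPM of all members, scaled by library totals (log axis), by histone type on the left and by cluster on the right, with 1 point per library and bars for the mean ± SD (n = 3 per arm). The GSK and COMBO libraries lie above the DMSO and GDC libraries for every type, and the widest gap among the clusters is that of HIST2.

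The first question was what PI3K inhibition alone does to these genes. In GDC against DMSO, 4 of the 35 tested members were higher and 5 were lower (edgeR, adjusted p under 0.05), where 20.0% of all 14189 genes tested were higher and 20.0% were lower. The median log2 fold change of the tested members was -0.09, and that of all genes was 0.02. HIST2H2BE showed 24.8, 23.0 and 23.6 CPM in DMSO and 34.1, 33.6 and 37.2 in GDC, so the arms did not overlap (log2 fold change 0.56 ± 0.06 SE, adjusted p = 9.4e-07). HIST2H2BF, HIST1H2BD and HIST3H2A were also called higher, by 0.37 ± 0.11, 0.36 ± 0.11 and 0.38 ± 0.14. Those 3 calls were lost when some single libraries were left out, and HIST2H2BF overlapped, with 7.79, 7.91 and 7.24 CPM in DMSO and 7.87, 10.4 and 10.7 in GDC. HIST2H2BF lost its call without DMSO C (0.28, adjusted p = 0.12), GDC B (0.27) or GDC C (0.26), and HIST1H2BD without DMSO A (0.28), DMSO C (0.26, adjusted p = 0.14), GDC A (0.31) or GDC C (0.29). HIST3H2A, an H2A gene, lost it without any 1 of DMSO A (0.22), DMSO C (0.41), GDC A (0.39), GDC B (0.32), GDC C (0.30), GSK A (0.34), GSK B (0.34) or COMBO A (0.33). DESeq2 did not call HIST3H2A either. The number of members called higher fell to 2 without DMSO A, DMSO C, GDC A or GDC B and to 1 without GDC C.

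The members that fell with GDC included the 2 most abundant. HIST1H2BK stood at 84.7, 89.6 and 84.8 CPM in DMSO and at 67.7, 66.8 and 69.3 in GDC (log2 fold change -0.35 ± 0.05, adjusted p = 1.6e-05). HIST1H1C stood at 49.1, 50.6 and 48.0 in DMSO and at 39.6, 41.8 and 39.4 in GDC (-0.28 ± 0.05, adjusted p = 2.2e-04). Neither gene had overlapping arms. HIST1H2BJ, an H2B gene, had the largest decrease, from 6.10, 7.30 and 6.30 CPM to 3.89, 3.39 and 3.08 (-0.94 ± 0.14, adjusted p = 2.6e-05). HIST1H2AC, an H2A gene, went from 11.7, 12.8 and 11.6 to 9.10, 8.19 and 9.12 (-0.45 ± 0.13, adjusted p = 8.7e-03). HIST2H2BC, an H2B pseudogene, fell by 0.48 ± 0.16 on the log2 scale, a call that was lost without GDC A (-0.44) or GDC B (-0.45). DESeq2 did not call HIST2H2BC either. No H3 or H4 gene was called among 6 tested of each, and at an unadjusted p under 0.05 there was 1 H3 gene, lower, and 0 H4 genes, while DESeq2 called 0 of both.

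The second question was what EZH2 inhibition alone does. In GSK against DMSO, 21 of the 35 members were higher and 5 were lower, where 40.0% of all genes tested were higher and 35.7% lower. The median log2 fold change was 0.67 over the tested members and 0.06 over all genes. Scaling by library totals instead of TMM moved the median of all genes up by 0.15 on the log2 scale. Of the 21 members that rose, 17 kept the call in every alternative fit in which they were tested, which leaves out a threshold on fold change. The 4 that did not were HIST1H2AG, HIST1H2BF, HIST1H4E and HIST3H2BB, with log2 fold changes of 0.44, 0.54, 0.69 and 0.90. HIST1H2AG lost its call without DMSO A (0.37), DMSO C (0.41), GSK A (0.33) or GSK B (0.38), and HIST1H2BF without DMSO A (0.45), DMSO C (0.50), GSK A (0.44) or GSK C (0.52). DESeq2 called neither HIST1H2AG nor HIST1H2BF. HIST3H2BB lost its call without DMSO C (0.80) or GSK B (0.68). HIST1H4E lost it without any 1 of DMSO A (0.51), DMSO B (0.60), GDC B (0.65), GDC C (0.66), GSK A (0.69), GSK B (0.75), GSK C (0.52), COMBO A (0.64) or COMBO C (0.65).

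HIST2H2BE rose most, to 144, 143 and 134 CPM in GSK (log2 fold change 2.56 ± 0.06, adjusted p = 5.3e-18), a 5.92-fold increase over DMSO. It lies at chr1:149884459-149886682 (hg38, minus strand) and its annotated transcript runs past the stem-loop. HIST1H3E, an H3 gene, was at 2.11, 1.66 and 0.94 CPM in DMSO and at 5.71, 6.17 and 6.70 in GSK (2.22 ± 0.22, adjusted p = 1.4e-08). HIST1H4H, an H4 gene, went from 2.53, 2.88 and 3.92 CPM to 13.7, 13.7 and 12.1 (1.96 ± 0.15). HIST1H4B, an H4 gene that passed the filter only through GSK and COMBO, was at 0.21, 0.17 and 0.29 CPM in DMSO and 0.88, 1.11 and 0.93 in GSK. For all 4 genes every GSK library was above every DMSO library.

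The abundant members moved the same way. HIST1H1C reached 111, 110 and 112 CPM in GSK (1.18 ± 0.05, adjusted p = 3.3e-14), and HIST1H2BK reached 129, 121 and 120 (0.51 ± 0.05, adjusted p = 7.4e-09). Both genes were thus above DMSO in GSK and below it in GDC. HIST1H2BC, an H2B gene, went from 5.89, 6.25 and 5.82 in DMSO to 21.2, 22.4 and 18.0 in GSK (1.78 ± 0.11). HIST1H2AC, which shares its start region with HIST1H2BC, reached 30.7, 30.7 and 21.3 (1.19 ± 0.11). GSK C was the lowest of the 3 GSK libraries for both. HIST1H2BD rose by 1.5 ± 0.10, HIST2H2BF by 1.54 ± 0.10, HIST3H2A by 0.67 ± 0.14, HIST1H3H (H3) by 0.72 ± 0.13 and HIST1H2AM (H2A) by 0.63 ± 0.16, each without overlap with DMSO. HIST1H2BJ, which fell with GDC, was at 6.26, 7.35 and 6.70 CPM in GSK and overlapped DMSO (0.05 ± 0.13, adjusted p = 0.74).

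The members that fell with GSK were all at low levels. HIST2H2AC, an H2A gene at chr1:149886918-149887411 (hg38, plus strand), went from 2.0, 2.16 and 1.90 CPM to 1.10, 0.87 and 1.19 (-0.93 ± 0.24, adjusted p = 1.8e-03), and it alone of the 5 kept its call in every alternative in which it was tested. HIST1H3A (H3) went from 1.26, 1.44 and 1.71 CPM to 0.66, 0.87 and 0.51 (-1.17 ± 0.40), a call lost without DMSO C (-1.02, adjusted p = 0.068) or GSK C (-0.98). HIST1H1B, the linker histone H1.5, went from 1.37, 1.38 and 1.18 to 0.99, 0.55 and 0.25 (-1.15 ± 0.35), and it lost its call without GSK C (-0.78, adjusted p = 0.065). HIST1H4C (H4) was at 0.74, 1.49 and 1.30 in DMSO and at 0.33, 0.24 and 1.19 in GSK, with overlap (-1.07 ± 0.44), and lost its call without DMSO B (-0.98), DMSO C (-1.04), GSK A (-0.89) or GSK B (-0.68). HIST2H2BC fell by 0.40 ± 0.17 on the log2 scale, a call lost without DMSO A (-0.40), DMSO B (-0.41), GSK A (-0.38) or GSK C (-0.41). DESeq2 called neither HIST1H4C nor HIST2H2BC. The number of members called lower was 3 without DMSO B, DMSO C or GSK A and 2 without GSK C.

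**Figure D3:**
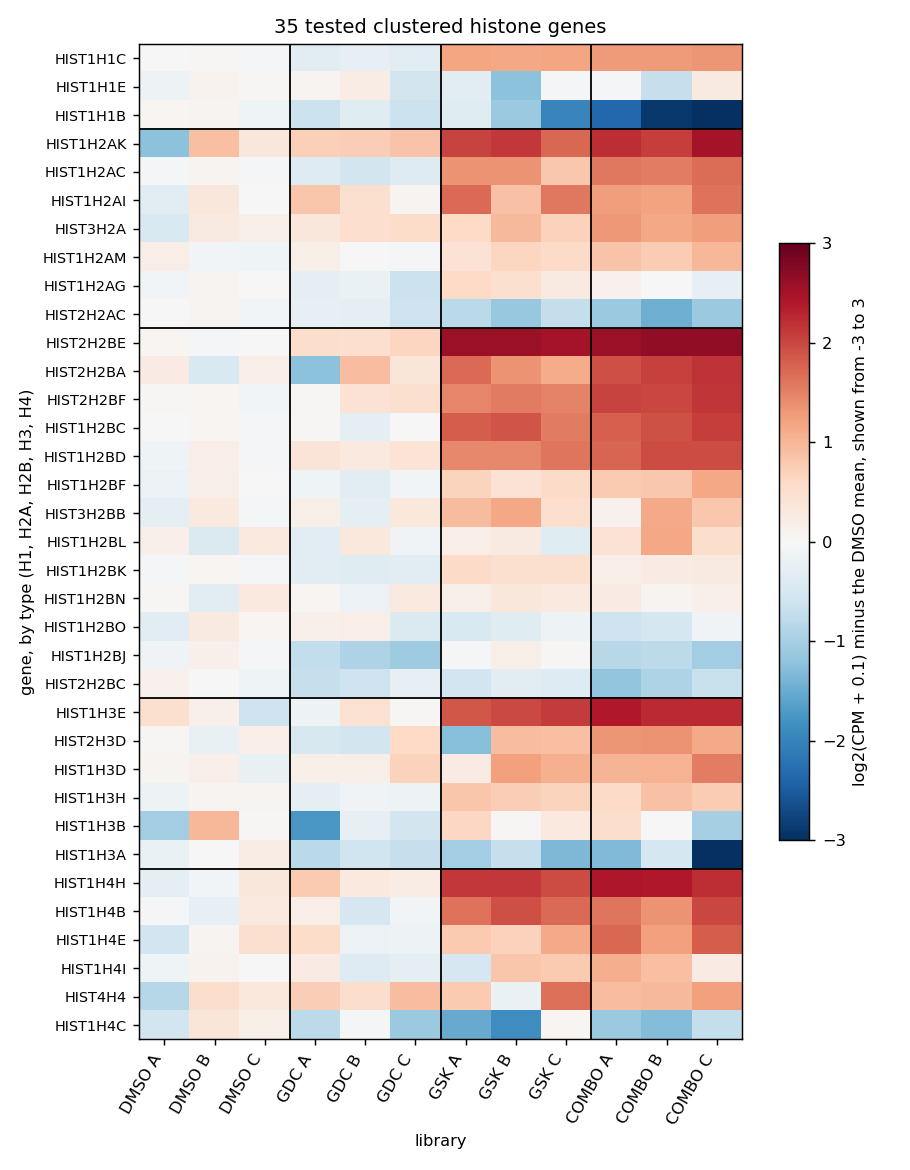
Heat map of the 35 tested clustered histone genes (rows, by type and then by change in COMBO) in the 12 libraries (columns), as log2(CPM + 0.1) minus the mean of the DMSO libraries. HIST2H2BE, HIST1H3E and HIST1H4H are high in all GSK and COMBO libraries, and HIST1H1B is at its lowest in the COMBO libraries.

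Both agents together were then compared with DMSO. In COMBO, 24 of the 35 members were higher and 6 were lower, where 43.3% of all genes tested were higher and 39.2% lower. The median log2 fold change was 0.94 over the tested members and 0.05 over all genes, and scaling by library totals moved the latter up by 0.21 (by 0.17 in COMBO against GDC). Of the 24 members that rose, 20 kept the call in every alternative in which they were tested. The others were HIST1H2BL (0.75 ± 0.26), HIST1H4I (0.96 ± 0.38), HIST3H2BB (0.79 ± 0.27) and HIST4H4 (0.84 ± 0.35), with adjusted p from 0.011 to 0.030. HIST1H2BL lost its call without DMSO B (0.56) or COMBO B (0.41), HIST1H4I without DMSO C (0.95), HIST3H2BB without DMSO C (0.70) or COMBO B (0.47), and HIST4H4 without DMSO A (0.67), DMSO C (0.94) or COMBO C (0.72). DESeq2 did not call HIST1H2BL, HIST3H2BB or HIST4H4 either. The 6 that fell kept their call in each alternative in which they were tested. The comparisons of GDC, GSK and COMBO with DMSO share the same control libraries, so their values are set side by side and not correlated.

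HIST2H2BE reached 144, 152 and 151 CPM in COMBO (2.65 ± 0.06, adjusted p = 5.6e-19). HIST1H3E reached 8.24, 7.41 and 7.43 (2.52 ± 0.20), HIST1H4H 16.9, 16.6 and 14.6 (2.25 ± 0.14) and HIST2H2BF 31.3, 30.8 and 33.9 (2.08 ± 0.09). HIST2H2BA, an H2B pseudogene that passed the filter only through GSK and COMBO, was at 0.42, 0.22 and 0.41 CPM in DMSO and at 1.57, 1.73 and 1.89 in COMBO. The COMBO libraries lay above all DMSO libraries for each of these 5 genes. HIST1H2BC and HIST1H2BD rose by 1.94 ± 0.11 and 1.89 ± 0.09, HIST1H2AC by 1.60 ± 0.10, HIST1H1C by 1.30 ± 0.05, HIST3H2A by 1.14 ± 0.13, HIST1H2AM by 0.94 ± 0.14 and HIST1H3H by 0.72 ± 0.12. HIST1H2BK, the most abundant member, reached only 99.7, 102 and 104 CPM (0.24 ± 0.05, adjusted p = 1.2e-04).

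HIST1H1B had the largest decrease. It had 13, 25 and 49 counts in the DMSO libraries and 3, 2 and 1 in the COMBO libraries, and the ratio of the pooled scaled counts was 0.0892 (exact 95% interval 0.0318 to 0.202, counting error only). In the fit across all genes its adjusted p was 4.7e-07, for a gene that passed the filter through DMSO and GDC, where it was high. HIST1H3A had 9, 22 and 1 counts in COMBO, a pooled ratio of 0.380 to DMSO (exact 95% interval 0.248 to 0.567). COMBO B held 22 of these counts, and without it the ratio was 0.205. HIST1H4C had 8, 9 and 9 counts, a pooled ratio of 0.382 (exact 95% interval 0.237 to 0.597). HIST2H2AC fell to 0.87, 0.67 and 0.87 CPM (-1.33 ± 0.23, adjusted p = 2.0e-05), HIST1H2BJ to 3.66, 3.73 and 3.13 (-0.89 ± 0.13, adjusted p = 3.2e-06) and HIST2H2BC to 1.92, 2.31 and 2.77 (-0.92 ± 0.17, adjusted p = 3.8e-05). In all 6 genes every COMBO library was below every DMSO library. The 5 members not called in COMBO were HIST1H1E (linker histone H1.4), HIST1H2AG, HIST1H2BN, HIST1H2BO and HIST1H3B, with log2 fold changes between -0.56 and 0.08.

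The remaining question was what each agent adds to the other. Against GDC, COMBO had 23 members higher and 3 lower (HIST1H1B, HIST2H2AC and HIST2H2BC), where 37.9% of all genes tested were higher and 38.0% lower. HIST2H2BC lost its call without DMSO B (-0.41), DMSO C (-0.41), GDC C (-0.26), GSK B (-0.42), COMBO A (-0.31) or COMBO B (-0.44). Of the 23 higher members, HIST1H2BL lost its call without COMBO B (0.49), HIST1H4I without GDC B (1.06) or GDC C (1.12), and HIST3H2BB without GDC B (0.57), COMBO B (0.44) or COMBO C (0.70). DESeq2 called none of these, nor HIST2H2BC. Against GSK, COMBO had 7 members higher and 5 lower, where 19.0% of all genes tested were higher and 26.9% lower. With library totals the split was 9 higher and 3 lower. The higher members included HIST2H2BF (0.54 ± 0.08, adjusted p = 2.7e-05), HIST3H2A (0.47 ± 0.13), HIST1H2AC (0.41 ± 0.10) and HIST1H2BD (0.38 ± 0.08), which kept their calls in every alternative fit. HIST1H1C, HIST1H2BL and HIST1H4E, which DESeq2 did not call, did not keep theirs. HIST1H1C lost it without GSK C (0.12) or COMBO C (0.10), HIST1H2BL without GSK A (0.86), GSK C (0.57) or COMBO B (0.44), and HIST1H4E without GSK A (0.70), GSK B (0.64), COMBO A (0.67) or COMBO C (0.61). The lower members were HIST1H1B (-2.27 ± 0.59), HIST1H2BJ (-0.94 ± 0.14), HIST2H2BC (-0.53 ± 0.19), HIST1H2AG (-0.46 ± 0.17) and HIST1H2BK (-0.27 ± 0.05). HIST2H2BC lost its call without GSK B (-0.44), GSK C (-0.52), COMBO A (-0.39) or COMBO B (-0.54), and HIST1H2AG without DMSO C (-0.44), GDC A (-0.43), GSK A (-0.37), GSK B (-0.41), COMBO B (-0.47) or COMBO C (-0.38). DESeq2 called neither of them. Without COMBO B, 3 members were called lower. HIST2H2BE did not pass the test between COMBO and GSK (0.09 ± 0.05, adjusted p = 0.17).

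The interaction asked whether the log2 change in COMBO differed from the GDC change added to the GSK change. It was called in 3 members, 2 above the sum and 1 below it, where 4.86% of all genes tested were above and 16.5% below. HIST1H2AC (0.86 ± 0.16, adjusted p = 7.2e-04) and HIST1H1C (0.41 ± 0.07, adjusted p = 2.6e-04) lay above the sum. In both genes GDC alone was below DMSO and COMBO was above GSK. HIST2H2BE lay below the sum (-0.48 ± 0.08, adjusted p = 2.1e-04), since GDC alone raised it and COMBO stood near GSK. HIST1H1B had the lowest value (-1.72 ± 0.67) but did not pass (adjusted p = 0.071).

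Members were also grouped by the annotated end of their mRNA. Among the 13 tested members with a transcript that runs past the stem-loop, 10 were higher in GSK and 0 lower (40.0% and 35.7% of all genes tested), a count that was also 0 at an unadjusted p under 0.05 and by DESeq2. In COMBO 11 of the 13 were higher and 1, HIST1H2BJ, was lower (43.3% and 39.2% of all genes). Among the 17 that end at the stem-loop, 7 were higher and 4 lower in GSK, and 10 were higher and 4 lower in COMBO. These rises include HIST1H4B in GSK and HIST1H4B, HIST1H4I and HIST2H3D in COMBO. No DMSO or GDC library of these members reached the filter's level. The counts and median of this group thus include members tested because of the arms in which they were high. The count of 7 of 17 is near the share of all genes. The 4 lower members in COMBO were HIST1H1B, HIST1H3A, HIST1H4C and HIST2H2AC. The median log2 fold change in COMBO was 1.14 for the former group and 0.92 for the latter, both above the 0.05 of all genes, and the ranges overlapped (-0.89 to 2.65 and -3.42 to 1.83). The difference between the groups was not tested. The 5 tested members without a strict stem-loop had 3 higher and 1 lower in COMBO, and the higher include HIST2H2BA, which passed the filter only through GSK and COMBO. HIST1H1C, with the second highest level per kilobase of all members, was among those annotated to end at the stem-loop.

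**Figure D4:**
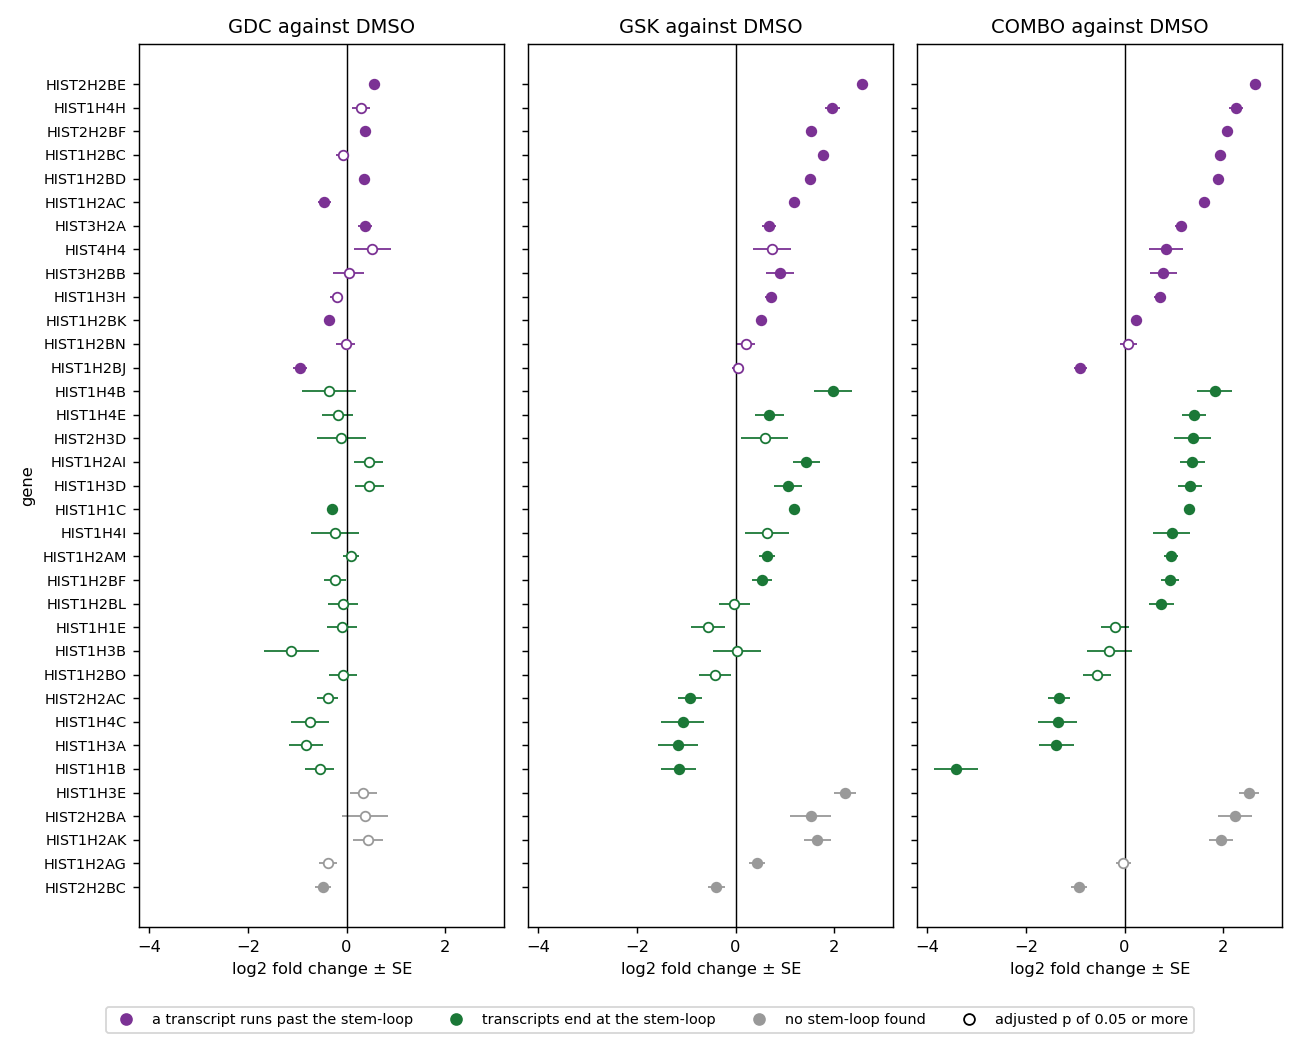
Log2 fold change ± SE of the 35 tested members against DMSO in each arm, coloured by the annotated 3′ end, with filled points for an adjusted p under 0.05 (edgeR). In COMBO 11 of the 13 members with a transcript past the stem-loop are higher, and the 4 lowest values belong to members that end at the stem-loop.

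H2A and H2B genes of these clusters lie in head-to-head pairs with a short stretch between their starts. The reference held 13 such pairs, with 193 to 287 bases between the starts, and both genes were tested in 7 of them. In COMBO, both partners rose in 3 pairs (HIST1H2BC with HIST1H2AC, HIST1H2BL with HIST1H2AI, and HIST3H2BB with HIST3H2A). In 3 pairs only 1 partner was called: HIST1H2AK (1.95) beside HIST1H2BN (0.08), HIST1H2AM (0.94) beside HIST1H2BO (-0.56), and HIST1H2BJ (-0.89) beside HIST1H2AG (-0.02). In 1 pair the partners were called in opposite directions, HIST2H2BE (2.65) and HIST2H2AC (-1.33). The stretches between the starts are shown for this pair and for a pair that rose together, since both pairs carry the same 3 kinds of motif. They are from RefSeq (GRCh38.p14), read 5′ to 3′ on the strand of the H2B gene, with the start of the H2B gene just past the right end. Capitals mark the TATA box TATAAA, the CCAAT box and the octamer ATTTGCAT on either strand, the last being typical of H2B promoters.
HIST2H2BE and HIST2H2AC, chr1:149886683-149886917: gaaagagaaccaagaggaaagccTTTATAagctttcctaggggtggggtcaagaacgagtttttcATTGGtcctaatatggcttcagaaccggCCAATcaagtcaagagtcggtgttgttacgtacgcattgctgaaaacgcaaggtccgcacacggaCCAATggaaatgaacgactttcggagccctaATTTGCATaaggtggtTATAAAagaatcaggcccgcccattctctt
HIST1H2BC and HIST1H2AC, chr6:26123927-26124171: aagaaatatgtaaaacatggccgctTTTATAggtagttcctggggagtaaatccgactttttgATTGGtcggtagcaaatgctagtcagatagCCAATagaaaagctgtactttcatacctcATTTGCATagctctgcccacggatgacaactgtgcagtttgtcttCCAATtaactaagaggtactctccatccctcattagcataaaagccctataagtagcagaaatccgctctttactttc
The first stretch holds 2 TATA boxes, 3 CCAAT boxes and 1 octamer, and the second holds 1, 3 and 1. In the 300-base promoters of the members (69 promoters of 65 genes), the TATA box was found in 66.7%, the CCAAT box in 85.5% and the octamer in 39.1%, against 11.5%, 34.6% and 1.77% of all 35116 promoters. The octamer was found in 75% of H2B and 68.8% of H2A promoters and in none of the 13 H4 promoters. Promoters of a head-to-head pair overlap and both strands were searched, so 1 octamer can count for both an H2A and an H2B gene. These matches describe the letters and not binding.

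**Figure D5:**
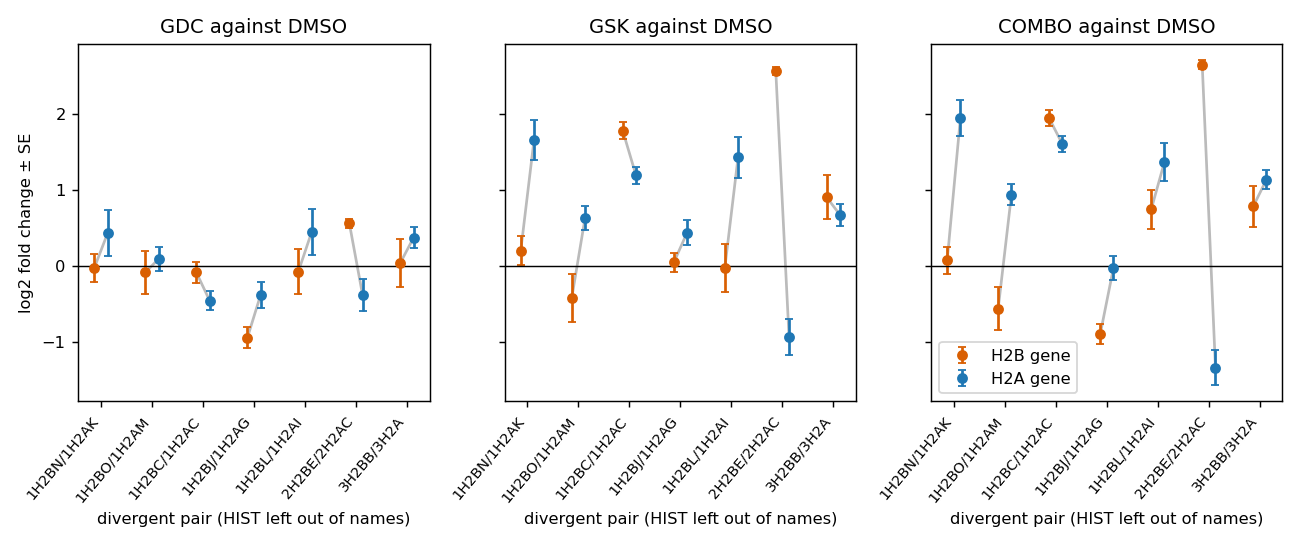
Log2 fold change ± SE against DMSO of both genes of the 7 tested head-to-head pairs (H2B gene left, H2A gene right in each pair, joined by a line) in each arm. In GSK and COMBO the line of the pair HIST2H2BE and HIST2H2AC crosses 0, from 2.56 to -0.93 and from 2.65 to -1.33.

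Genes outside the clusters that make, carry or replace histones were read beside the members. Of 11 tested histone genes outside the clusters, which are expressed independently of replication or in both modes, 2 were higher and 5 lower in COMBO, where 43.3% of all genes tested were higher and 39.2% lower. H2AFZ, which encodes the variant H2A.Z, was at 1318 ± 30.0 CPM in DMSO (SD, n = 3). It was at 1032 ± 31.8 in GDC, 659 ± 18.3 in GSK and 348 ± 30.7 in COMBO, where its log2 fold change was -1.92 ± 0.05. H2AFX, the damage-marking H2A.X, went from 236 ± 18.2 in DMSO to 40.4 ± 0.838 in COMBO (-2.55 ± 0.07). H1F0, the linker histone H1.0 of non-dividing cells, rose from 267 ± 9.0 to 465 ± 23.2 (0.80 ± 0.05, adjusted p = 3.9e-12). H3F3B, which encodes H3.3, was at 485 ± 5.04 in DMSO and 486 ± 34.4 in COMBO (0.00 ± 0.04, adjusted p = 0.93).

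Of 11 factors of histone mRNA 3′ end processing, 8 were lower in GDC, 9 in GSK and 9 in COMBO, and 1 was higher in COMBO. Of all genes tested, 20.0% were lower in GDC, 35.7% in GSK and 39.2% in COMBO. SLBP, which binds the stem-loop shown above, was at 119 ± 3.71 CPM in DMSO, 106 ± 4.42 with GDC, 44.2 ± 2.52 with GSK and 33.2 ± 2.01 with both (-1.84 ± 0.06 in COMBO, adjusted p = 1.2e-16). CPSF2 and SRRT, of the cleavage complex and the cap-associated machinery, fell in COMBO by 0.87 ± 0.05 and 1.02 ± 0.04 on the log2 scale. Of 4 transcription factors of histone genes, 2 were higher and 2 lower in COMBO, near the shares of all genes (43.3% and 39.2%). NPAT, the coactivator of clustered histone transcription, went from 58.0 ± 4.97 to 39.7 ± 2.93 (-0.55 ± 0.07), CASP8AP2 (FLASH, a component of histone locus bodies) fell by 0.69 ± 0.07 and POU2F1, the octamer-binding OCT1, rose by 0.33 ± 0.11. Of 6 decay factors, 3 were higher and 2 lower in COMBO, again near those shares. ERI1, the exonuclease that trims the stem-loop, fell by 1.52 ± 0.07, SMG1 rose by 0.69 ± 0.16, and UPF1 fell by 0.18 ± 0.05, a direction that turned with library totals (0.03, adjusted p = 0.58).

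Of 15 histone chaperones, 14 were lower in COMBO and 1 was higher, against 39.2% and 43.3% of all genes. ASF1B, which hands H3 and H4 to the replication fork, went from 74.2 ± 2.79 CPM in DMSO to 6.35 ± 1.58 in COMBO (-3.51 ± 0.10), SSRP1 of the FACT complex fell by 1.53 ± 0.04, and NAP1L1 fell by 0.52 ± 0.04 after a rise of 0.33 ± 0.04 in GDC. All 17 S-phase genes were lower in GSK and in COMBO, and 14 were lower in GDC, where 35.7%, 39.2% and 20.0% of all genes were lower. PCNA, the clamp of the replication fork, was at 259 ± 5.99 CPM in DMSO, 195 ± 16.4 with GDC, 86.2 ± 2.0 with GSK and 33.4 ± 3.15 with both (-2.94 ± 0.07 in COMBO). MCM7 and MCM4 of the replicative helicase fell by 2.45 ± 0.05 and 3.06 ± 0.06 in COMBO, and RRM2, of ribonucleotide reductase, fell by 4.30 ± 0.07. The summed S-phase level ranged from 3365 to 3505 CPM in DMSO, 2675 to 2883 with GDC, 1171 to 1281 with GSK and 474 to 505 with both agents. In GSK and COMBO it was lower than in DMSO while the histone sum was higher, and its part in the histone values was not tested. In bulk RNA, fewer cells in S phase and less RNA per cell cannot be told apart.

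Values of the whole series that bear on these results were as follows. Prostate markers were present, with FOLH1 at 1178 ± 13.8 CPM, KLK3 at 597 ± 50.8 and HOXB13 at 484 ± 34.5 in DMSO (SD, n = 3). In COMBO they stood at 1674 ± 53.6, 1843 ± 159 and 304 ± 6.53. Reads that fell outside annotated genes made up 14.2% ± 0.481 of reads in DMSO and 15.6% ± 0.268 in GDC, against 18.8% ± 0.264 in GSK and 21.8% ± 1.07 in COMBO (SD, n = 3). Its part in the histone values was not tested. Exons of 8 tested members overlap another gene in GENCODE 44, namely HIST1H2AC, HIST1H2BC, HIST1H2AM, HIST1H3D, HIST1H4H, HIST2H2BC, HIST2H2BF and HIST3H2BB. No source used here states whether reads were counted by strand, so reads of an overlapping partner cannot be told apart from theirs.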

How the data were processed

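PolyA RNA of C4.2B cells was sequenced in 12 libraries (4 arms, 3 each). The authors aligned reads to hg38 and deposited raw counts per gene for each library. The submitters' processing notes name STAR, HTSeq and DESeq2, without versions, and the gene annotation is not given in the sources used here. The authors also deposited a table of counts divided by DESeq2 size factors (a signal, not raw counts), which served as a check: 864 of 864 member values matched within 0.01. There were 0 columns of per-sample values mapped to no library. Summary lines, 23.7% to 33.7% of reads, were left out.

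From the counts, edgeR 4.0.16 in R 4.3.3 (TMM, filterByExpr, glmQLFit and glmQLFTest) was fitted to all 12 libraries with 1 coefficient per arm and no covariate. P-values are two-sided and adjusted by Benjamini-Hochberg over 14189 genes. CPM are TMM-scaled, and sums over members use library totals. Within an arm, replicates were further apart than counting error alone gives (chi-square per degree of freedom 1.81 to 6.60), so each counted once. On data drawn for 14189 genes in the COMBO against DMSO comparison, the fit called 91.9% of 99 genes changed 2-fold and 75.3% of 97 changed 1.41-fold, with 9 false calls.

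Coordinates are from GENCODE 44 on hg38, promoters and pair starts from RefSeq (GRCh38.p14), and all 72 older symbols matched a RefSeq gene. Members, gene lists and groupings were chosen with earlier results of these data known. Full values were given for the 12 most abundant members, the 5 called members with the largest rise and fall in each arm against DMSO, the 3 on each side of the interaction, 2 abundant genes and the most changed gene of each list, and SLBP, NPAT, H2AFX, H2AFZ, H1F0 and PCNA. Alternatives were DESeq2 1.42.0, scaling by its size factors or by library totals, testing with no filter or above a mean of 1 CPM, a minimum change of 1 on the log2 scale, the compared arms alone, a replicate block, each library left out, and near-identical copies left out. Some marker genes of the cell line are not reported here.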

Additional observations from a re-analysis of the deposited data

Results flagged for a closer look

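An effect in COMBO was found to differ in 3 members from the GDC and GSK effects added together, in the test of the difference itself (edgeR, adjusted over all 14189 genes). HIST1H2AC departed by 0.86 ± 0.16 on the log2 scale and HIST1H1C by 0.41 ± 0.07, both above the sum, and HIST2H2BE by -0.48 ± 0.08, below it. All 3 kept their calls in every alternative fit, though none reaches an absolute change of 1.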

How the results depend on the processing

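Of 6106 alternative values for 55 named genes, 5867 kept their side of the threshold and, where called, their direction. Among the others, 157 lost a call and 81 gained one. Direction turned with a call in either fit in 1 (the log2 fold change of UPF1 in COMBO with library totals, 0.029). Turns of direction with no call in either fit were not counted. The cause of each change was not tested. Counts of members higher and lower are given below where they moved by over 1.5 times. A minimum change of 1 on the log2 scale left 0 higher and 0 lower in GDC against DMSO, 13 higher and 3 lower in GSK, 15 higher and 1 lower in COMBO against GDC, 0 higher and 1 lower in COMBO against GSK, and 0 and 0 in the interaction. A mean of at least 1 CPM, with which 26 members were tested, left 2 lower in GSK, 3 in COMBO, and 1 when COMBO was set against GDC. No filter gave 8 lower in GDC. Library totals gave 3 lower in GSK (22 higher) and 3 lower in COMBO against GSK (9 higher). DESeq2 gave 3 lower in GSK and 4 higher in COMBO against GSK. Fitting only the arms compared gave 2 lower in COMBO against GSK.

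Without each library in turn, the members called higher and lower ranged from 1 to 4 and 4 to 6 in GDC, 18 to 21 and 2 to 5 in GSK, 21 to 26 and 6 to 8 in COMBO, 20 to 25 and 2 to 3 for COMBO against GDC, 5 to 9 and 3 to 5 for COMBO against GSK, and 2 to 3 and 1 to 2 in the interaction. The log2 ratio of the summed counts ranged from -0.10 to -0.05 in GDC, 1.28 to 1.33 in GSK and 1.42 to 1.47 in COMBO. DESeq2 size factors gave -0.16, 1.11 and 1.19, and TMM gave 1.15 in GSK and 1.23 in COMBO. Leaving out HIST1H2BK, which rose less than the sum in GSK and COMBO, gave 0.031, 1.55 and 1.78. The sum of all members without HIST2H2BE, which rose most, was not computed. Leaving out near-identical copies moved no count by over 1.5 times, but only HIST2H3D among them was tested, so this alternative could change little.

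Replicate letters were not treated as pairs: correlations of deviations within a letter ran from -0.084 to 0.188. For COMBO and GDC they were 0.116, 0.188 and 0.073 (A, B and C). No correlation between different letters was computed as a reference, so a weak pairing cannot be told from none. With the letter as a replicate block, the counts higher and lower were 4 and 5 in GDC, 22 and 4 in GSK, 23 and 6 in COMBO, 23 and 3 for COMBO set against GDC, 6 and 5 for COMBO set against GSK, and 2 and 1 for the interaction. Depth limits the rare members: 37 of 72 could not be tested, and HIST1H1B rests on 6 counts in COMBO. Alternatives were added after the data were seen: the pooled ratios without each library, of which that of HIST1H3A without COMBO B left its interval (0.205), and sums without the most counted member.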
